A study of Mus musculus with 6 samples.

Results

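Skeletal muscle contractile genes encode the proteins of the sarcomere, the repeating unit of striated muscle, and the channels, pumps and enzymes that drive and fuel it. Mouse back skin is underlain by the panniculus carnosus, a thin sheet of skeletal muscle that lies beneath the dermal fat, so that whole-skin RNA can carry its transcripts. The genes described here are 42 of the 17564 genes in the deposited table, chosen by symbol from a list of contractile, calcium-handling, energy and atrophy genes, and all 42 had a row. By class, 14 belong to fast fibres, 8 to slow fibres and 17 to both, and the other 3 are the atrophy genes Trim63 and Fbxo32 with the regulator Myog.

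Whole back skin of wild-type C57BL/6 mice, 8 weeks old and kept free of specific pathogens, gave 3 untreated and 3 treated samples for bulk RNA sequencing. Every mouse was shaved and depilated on the back. Treated skin then carried 3 µg of SspA, the V8 protease of staphylococci, together with 10 µg of house dust mite (HDM), put on topically and repeated 3 days later, with collection on day 7, while untreated skin had neither agent and no collection day in the labels. Whether each sample is a different mouse is not in the labels either, and the p-values therefore speak for the scatter of these libraries alone, which could be technical. Untreated replicates 1 to 3 are called U1 to U3 and treated replicates 1 to 3 are called T1 to T3.

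Vertebrate muscle fibres are classed by the myosin heavy chain they carry. Fast fibres use Myh2, Myh1 and Myh4 with fast forms of the light chains and troponins, and slow fibres use Myh7 with slow forms encoded by separate genes. When a fibre is wasting, the ubiquitin ligases Trim63 (MuRF1) and Fbxo32 (atrogin-1) mark proteins of the fibre for breakdown, and both are textbook atrophy genes. Myog (myogenin) is a transcription factor of muscle differentiation that binds the DNA motif called the E-box.

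Libraries held between 4928245 reads (U2) and 7545567 reads (T3), and the other 4 held 5580401 to 5821622. The deposited values, called scaled reads below, are reads multiplied by 1 factor per library to nearly equal totals. The untreated group thus holds the shallowest library and the treated group the deepest. No gene in any library exceeded 0.923 reads per base of transcript, a ceiling that none of the sources used here explains. Many muscle genes were dense on this scale: 19 of the 42 averaged over 0.5 reads per base. Over 0.2, which is still far below the ceiling, there were 31. By arithmetic, a gene held at a fixed number of reads per base has a lower scaled value in a deeper library. As a check of the tissue, the keratinocyte markers summed to between 19173 and 24106 scaled reads and the dermal fibroblast markers to between 15796 and 21044 in the 6 libraries.

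The start regions of 3 genes that were lower in treated skin are shown because they belong to different roles: Trim63 marks proteins for breakdown, Myh1 is a fast myosin, and Cacna1s is the voltage sensor of the muscle membrane. Each is the 250 bases before the gene's start from RefSeq on GRCm38.p6, the assembly called mm10, on the plus strand. They lie at chr4:134314870-134315119 for Trim63, chr11:67199852-67200101 for Myh1 and chr1:136052561-136052810 for Cacna1s. Capitals mark the E-box CAGCTG, the motif TATAAA on either strand, and the MEF2 motif, and each motif was searched on both strands.
Trim63: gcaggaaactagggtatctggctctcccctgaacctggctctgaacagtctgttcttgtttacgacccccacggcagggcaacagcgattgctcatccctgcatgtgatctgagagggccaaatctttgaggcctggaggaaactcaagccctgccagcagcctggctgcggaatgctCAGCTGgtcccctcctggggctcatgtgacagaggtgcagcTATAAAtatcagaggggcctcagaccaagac
Myh1: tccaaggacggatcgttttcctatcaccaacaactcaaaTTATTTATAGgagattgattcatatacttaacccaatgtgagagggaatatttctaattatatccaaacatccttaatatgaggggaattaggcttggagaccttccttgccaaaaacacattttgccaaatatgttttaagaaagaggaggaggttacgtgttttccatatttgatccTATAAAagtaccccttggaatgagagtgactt
Cacna1s: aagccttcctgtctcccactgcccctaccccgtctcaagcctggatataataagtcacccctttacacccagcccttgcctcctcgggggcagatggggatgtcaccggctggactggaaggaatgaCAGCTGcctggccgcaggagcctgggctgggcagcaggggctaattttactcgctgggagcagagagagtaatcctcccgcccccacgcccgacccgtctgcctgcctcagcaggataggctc
Trim63 holds CAGCTG and, nearer its start, TATAAA. Myh1 holds a MEF2 motif that overlaps TATAAA on the opposite strand, and a second TATAAA, while Cacna1s holds CAGCTG. Over the 40 such regions of the 33 members with an entry, CAGCTG was in 45% of regions against 13% of all 32851 regions of the same length. The MEF2 motif was in 15% against 2.92%, TATAAA on either strand in 17.5% against 12.4%, and the CArG box, the motif of serum response factor, in 12.5% against 1.47%. Some members have several overlapping regions, and a match describes the letters and not a bound site.

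Muscle genes were lower in treated skin as a body. In untreated libraries 1, 2 and 3 the 42 genes took 1.39%, 1.59% and 1.27% of all scaled reads, and in T1, T2 and T3 they took 1.07%, 1.09% and 0.958%. The 2 ranges do not overlap. Of the 42, 40 had enough reads to be tested, and 22 of these fell (limma, adjusted p under 0.05) while 0 rose, also at an unadjusted p under 0.05, where 7.23% of all 15534 tested genes fell and 9.26% rose. The median log2 fold change of treated over untreated was -0.41 for the 40 tested genes and 0.032 for all tested genes. In 35 of the 42 the highest treated library lay below the lowest untreated one, a pattern seen in that direction in 15.6% of tested genes (21.7% in the other direction, which 0 members showed). The 35 include Myl3, which had too few reads to be tested. By fibre class the medians were -0.36 for the fast, -0.28 for the slow and -0.46 for the shared genes, and -0.94 for the atrophy genes with Myog. Of the 42, 16 have an exon overlapped by a gene on the opposite strand, Ttn, Ryr1, Cacna1s, Xirp2 and Fbxo32 among them, and since the counting is not stated to use strand their reads could include those of the partner. The count dropped to 8, 8, 7 or 9 with U1, U2, T1 or T2 left out in turn, and to 6 without a trend in the spread, while the median stayed between -0.47 and -0.31 with any 1 library left out. In bulk skin, fewer muscle fibres in the sample and less RNA per fibre cannot be told apart.

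**Figure D1:**
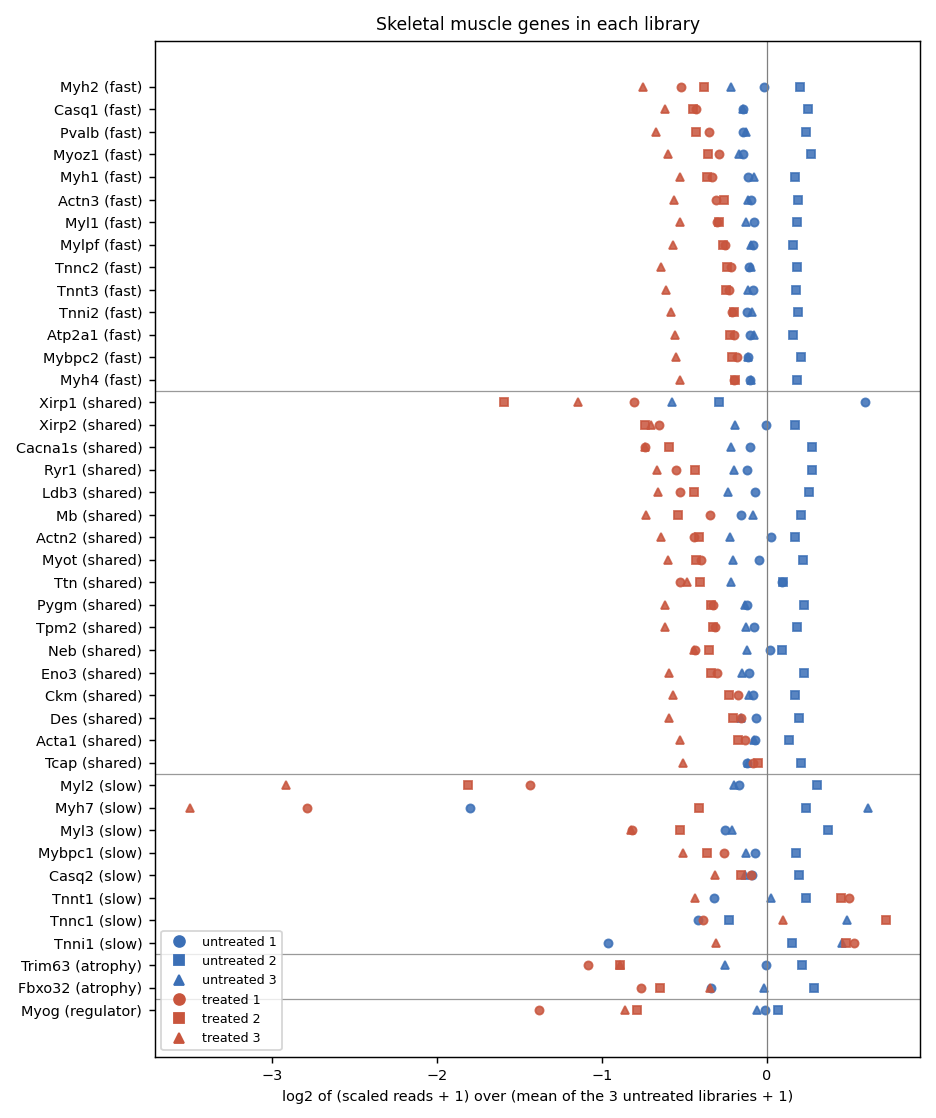
Each row is 1 muscle gene and each point 1 library, placed by its log2 ratio of scaled reads + 1 to the untreated mean + 1. Most treated points (red) lie left of the untreated points (blue), with T3 leftmost and U2 rightmost in most rows, while Tnnt1, Tnni1 and Tnnc1 show overlapping groups.

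The order of the libraries followed their depth in the densest genes. U2 was highest and T3 lowest in 32 of the 42 members, in 19 of the 19 members over 0.5 reads per base and in 3 of the 11 members at or below 0.2. Among tested genes that are no members, the same order held in 66.1% of the 118 over 0.5 reads per base and in 9.82% of all tested genes including members. The median log2 fold change of the 118 was -0.15, which is nearer to 0 than the members' median but on the same side. The comparison was repeated with this in view. In the 4 libraries of like depth (U1, U3, T1 and T2) 17 of the 40 members fell and 1 rose, against 8.91% and 8.73% of all genes, their median was -0.21, and all 17 that fell were among the 22. When the number of reads behind each value was estimated from the share of positions filled, which assumes that each position is counted once, 28 members fell and 0 rose, against 7.36% and 9.51% of all genes, with a median of -0.54. With both together 26 fell and 1 rose, against 8.93% and 8.72% of all genes, with a median of -0.36. By the edgeR quasi-likelihood test 23 fell and 0 rose, against 7.75% and 8.04% of all genes, and by DESeq2 31 fell and 0 rose, against 8.6% and 8.03%. The authors' deposited table has 29 lower and 0 higher, against 7.56% and 7.26% of its genes.

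**Figure D2:**
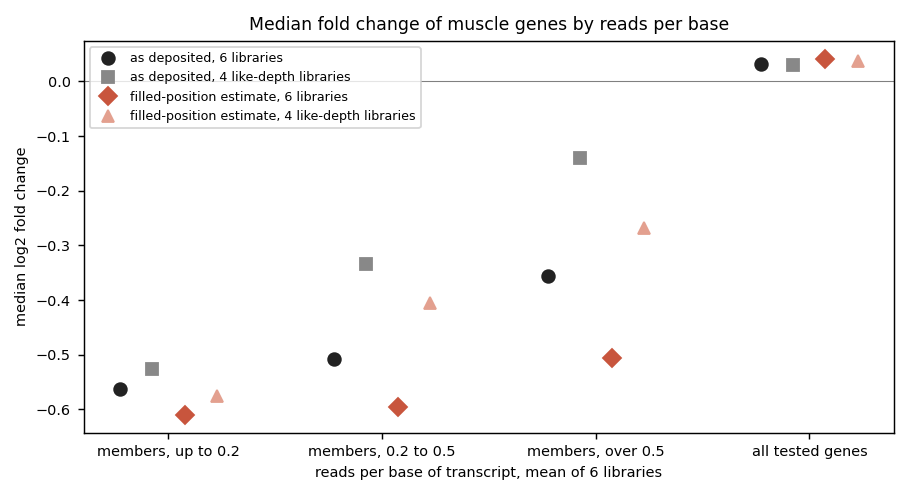
Median log2 fold change (y axis) of the tested muscle genes in 3 bands of reads per base of transcript, and of all tested genes, for the deposited values and the filled-position estimate, each in 6 libraries and in the 4 of like depth. The lowest band moved least between settings (-0.53 to -0.61) and the densest band most (-0.14 to -0.51).

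The atrophy genes were lower too. Trim63 had 581, 677 and 489 scaled reads in the 3 untreated libraries and 274, 314 and 314 in T1, T2 and T3. The groups lie well apart, and the gene sits at 0.212 reads per base, far below the ceiling. Its log2 fold change was -0.94 ± 0.13 (SE, n = 3 per group, limma adjusted p = 0.0037), one of the 4 member calls that held without any single library and in every alternative that tested them, the others being Xirp2, Cacna1s and Myl2. The gene lies at chr4:134315120-134329629 on the plus strand.

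Fbxo32, the second atrophy ligase, had 1331, 2058 and 1667 scaled reads in the untreated and 993, 1075 and 1326 in the treated libraries. The highest treated value lay just under the lowest untreated one. It fell by 0.56 ± 0.16 on the log2 scale (limma adjusted p = 0.0434), and was not called without U2 (0.117), U3 (0.0927), T1 (0.127) or T2 (0.124). In the 4 libraries of like depth its log2 fold change was -0.53 (limma adjusted p = 0.0119).

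Myog had 65.9, 69.5 and 63.6 scaled reads in the untreated libraries, which agree closely, and 24.9, 38.1 and 36.1 in the treated ones. Its log2 fold change was -1.01 ± 0.23 (limma adjusted p = 0.0208). The call was lost without U1 (0.0696), U2 (0.0639) or T1 (0.0522). At 0.0305 reads per base this gene was far from the ceiling, and its change in the 4 like-depth libraries was -1.05. It lies at chr1:134290004-134292548.

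**Figure D3:**
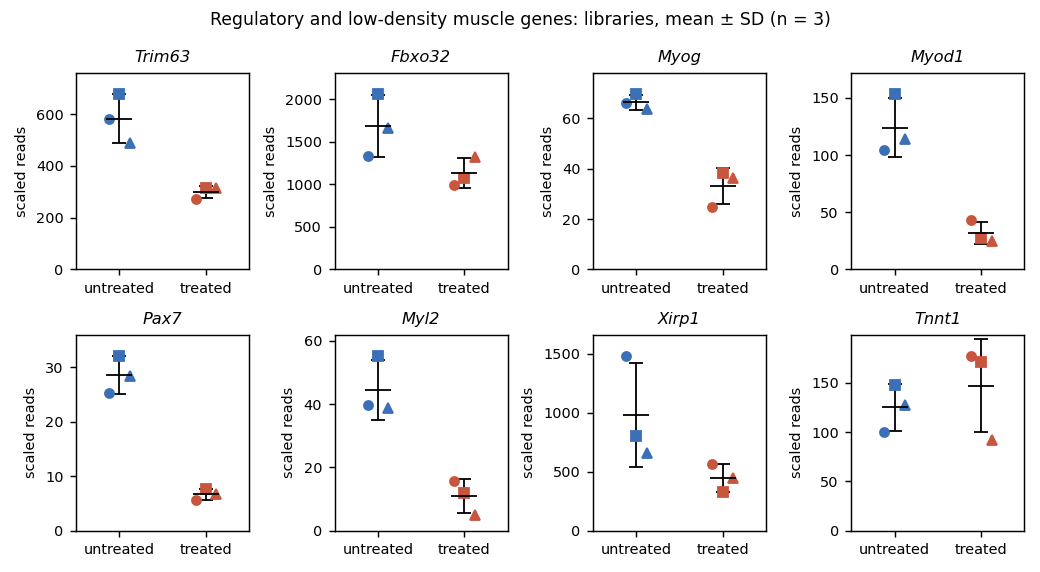
Scaled reads of 8 muscle genes in each library (points), with the mean and SD of each group of 3 (black). Trim63, Fbxo32, Myog, Myod1, Pax7, Myl2 and Xirp1 have treated points below all untreated points, and Tnnt1 has groups that overlap.

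Fast and slow isoform genes stood at very different levels. In the untreated libraries the fast troponin C gene Tnnc2 averaged 0.728 reads per base and its slow partner Tnnc1, the calcium sensor of slow and cardiac muscle, 0.0075. The fast troponin I gene Tnni2, the inhibitory subunit, averaged 0.778 and slow Tnni1 0.0109. For the heavy chain, Myh4 averaged 0.758 and Myh7 0.0039. Slow forms were between 0.519% and 1.43% of fast ones per base for the heavy chain, essential light chain, troponin I and troponin C, shares that the ceiling on the fast genes can raise. Other partners were closer: slow regulatory light chain Myl2 was 8.44% of Mylpf, slow troponin T Tnnt1 11.7% of Tnnt3, and Casq2, the calcium-binding protein of cardiac and slow muscle, 15.9% of Casq1. The exception was Mybpc1, the slow myosin-binding protein C, at 85.4% of the fast form Mybpc2.

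**Figure D4:**
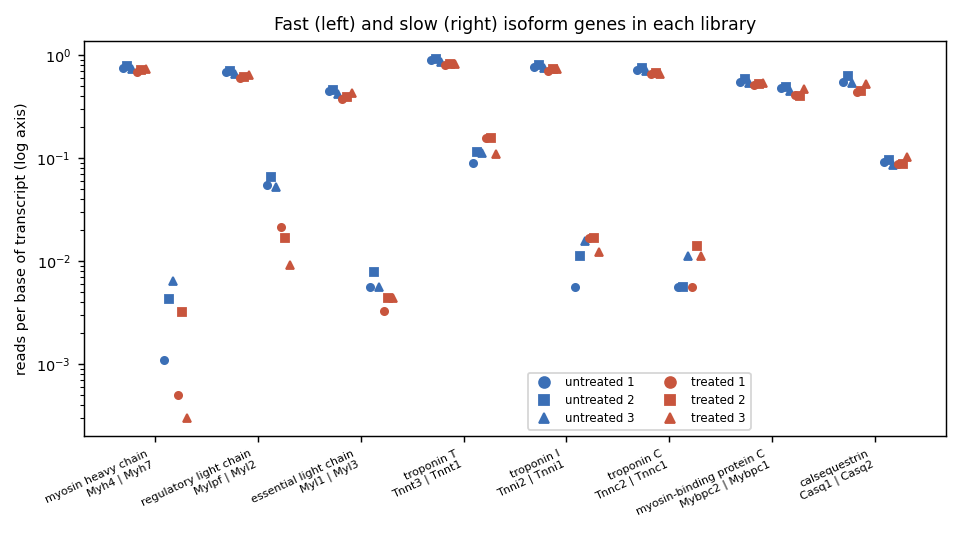
Reads per base of transcript (log axis, not adjusted for library depth) for 8 pairs of fast (left) and slow (right) isoform genes in each library. Fast genes lie near the top of the axis in all 6 libraries, while the slow partners spread widely below them, and of the 8 slow genes Mybpc1 lies nearest its fast partner.

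Among the 14 fast fibre genes, 4 fell and 0 rose, and all 14 had a negative log2 fold change, between -0.54 and -0.30 with a median of -0.36. All but Myh2 and Myl1 averaged over 0.5 reads per base, where 13.6% of the 118 tested genes that are no members fell and their median was -0.15, against 7.23% and 0.032 for all tested genes. A lower value was thus also found, at a smaller median, in other genes of that density. With 1 library left out the number of fast genes that fell ranged from 0 to 4. Myh2, the heavy chain of fast oxidative fibres, had 2845, 3310 and 2469 scaled reads in U1 to U3 and 2004, 2208 and 1706 in T1 to T3. These groups do not overlap, and the log2 fold change was -0.54 ± 0.13 (limma adjusted p = 0.0224). Myh1, the heavy chain of an intermediate fast type, had 4113, 5026 and 4222 against 3536, 3459 and 3090. It also showed no overlap, with a log2 fold change of -0.40 ± 0.10 (limma adjusted p = 0.0269). The Myh1 and Myh2 calls each held in 3 of the 6 fits that left out 1 library.

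Myh4, the heavy chain of the fastest fibres, had 4977, 6061 and 4998 scaled reads in the untreated and 4663, 4675 and 3708 in the treated libraries. It did not pass (-0.30 ± 0.12, limma adjusted p = 0.123). At 0.736 reads per base it was the densest of the 4 heavy chains. Its log2 fold change was -0.095 in the 4 like-depth libraries, where it was not called (limma adjusted p = 0.313). The filled-position estimate gave -0.41 (limma adjusted p = 0.0802). The 3 fast heavy chain genes lie side by side on chromosome 11 and are near-identical over long stretches, so reads may be split between them in ways the counting does not show. Myh1, Myh2 and Myh4 took 33.5 to 36.4%, 19.5 to 23.7% and 41.7 to 45.7% of the heavy chain reads per base in the 6 libraries, and Myh7 0.019 to 0.371%.

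Calsequestrin 1 (Casq1), which stores calcium in the sarcoplasmic reticulum of fast fibres, had 1126, 1483 and 1125 scaled reads in the untreated and 923, 915 and 812 in the treated libraries, and fell (log2 fold change -0.485 ± 0.12, limma adjusted p = 0.0244). Pvalb (parvalbumin), a calcium buffer that speeds relaxation, had 654, 853 and 662 against 567, 537 and 455. It fell as well (-0.47 ± 0.12, limma adjusted p = 0.0346), with no overlap of the groups. The Pvalb call held in 1 of the 6 fits that left out 1 library, and the Casq1 call in 4. Atp2a1, the calcium pump of fast fibres, did not pass (-0.32 ± 0.11, limma adjusted p = 0.0899), nor did the fast light chains Mylpf (-0.36, 0.0629) and Myl1 (-0.37, 0.0524), the fast alpha-actinin Actn3 (-0.37, 0.0504), the Z-disc protein Myoz1 (-0.40, 0.0674) and Mybpc2 (-0.31, 0.126). The fast troponins Tnnt3 (-0.36, 0.0777), Tnni2 (-0.32, 0.116) and Tnnc2 (-0.36, 0.101) also missed the threshold. With the filled-position estimate 9 of the 14 fell, against 7.36% of all genes, with a median of -0.49 for the 14.

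Slow fibre genes did not move as one. Of the 8, 6 were tested, and 2 fell and 0 rose, against 7.23% and 9.26% of all tested genes. The 2 were Myl2 and Mybpc1, and Mybpc1 was at 85.4% of its fast partner per base in the untreated libraries. Myl2, the regulatory light chain of slow and cardiac muscle, had 39.6, 55.3 and 38.6 scaled reads in U1 to U3 and 15.83, 11.98 and 5.04 in T1 to T3. The lowest untreated value is over 2 times the highest treated one, and the log2 fold change of -2.03 ± 0.40 (limma adjusted p = 0.0127) was the largest fall of any tested member. The gene lies at chr5:122100951-122106854. Relative to its fast partner Mylpf within the same library, Myl2 had 7.99%, 9.45% and 7.86% of the reads per base in the untreated and 3.59%, 2.75% and 1.43% in the treated libraries.

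Mybpc1 had 2064, 2460 and 1989 scaled reads in the untreated and 1813, 1689 and 1528 in the treated libraries and fell by 0.37 ± 0.10 (log2, limma adjusted p = 0.0374). Its call held in 1 of the 6 fits that left out 1 library. Myh7 was represented by 7, 27 and 40 reads in U1 to U3 and by 3, 20 and 2 in T1 to T3. Its groups overlap and it did not pass (-1.92 ± 0.86, limma adjusted p = 0.164). Myl3, the slow essential light chain, had 5, 7 and 5 reads against 3, 4 and 4, and Tnnc1 had 4, 4 and 8 against 4, 10 and 8. Both were below the filter, and at this depth no difference was detectable in them.

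The slow troponin T gene Tnnt1 had a positive log2 fold change, unlike most muscle genes, but its groups overlap. It had 100, 148 and 127 scaled reads in the untreated and 178, 171 and 92.4 in the treated libraries, so that T1 and T2 were above every untreated library and T3 below them all. Over 6 libraries it did not pass (0.19 ± 0.26, limma adjusted p = 0.671). In the 4 like-depth libraries, which leave out T3, it was called higher (0.62, limma adjusted p = 0.0428). Within a library Tnnt1 had 9.97%, 12.3% and 12.9% of the reads per base of Tnnt3 in U1 to U3 and 19.6%, 19.1% and 13.3% in T1 to T3. Tnni1 had 6, 12 and 17 reads in the untreated and 18, 18 and 13 in the treated libraries and did not pass (0.35 ± 0.44, limma adjusted p = 0.64). Casq2 had 254, 310 and 247 scaled reads against 253, 243 and 217, which overlap (-0.18 ± 0.12, limma adjusted p = 0.367). Whether the slow genes differ in response from the fast ones was not tested.

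**Figure D5:**
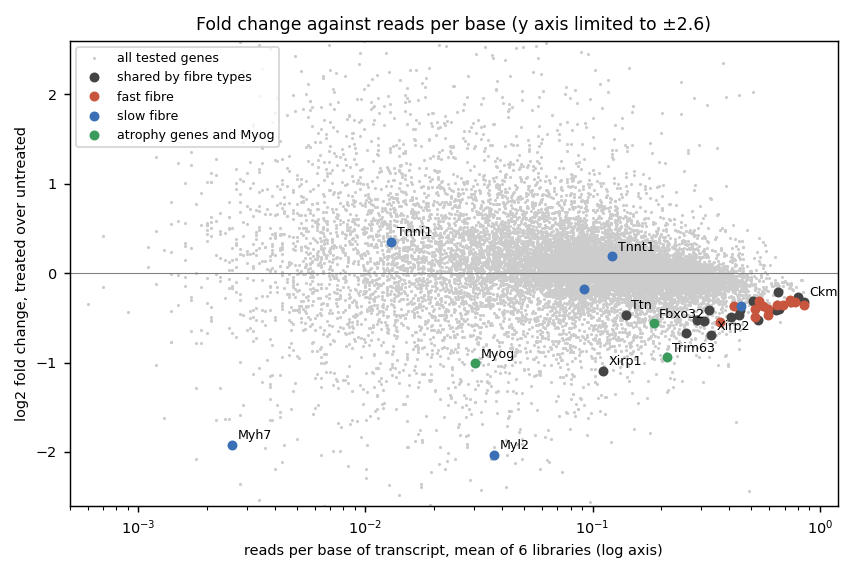
Log2 fold change of treated over untreated (y axis) against mean reads per base of transcript (log x axis) for all tested genes (grey) and the 40 tested muscle genes by fibre class. The fast genes form a tight group on the right between -0.54 and -0.30, and the lower-density genes Myl2, Myh7, Xirp1, Myog and Trim63 lie at or below -0.94.

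Across the 40 tested members the signed log2 fold change tended to be higher, mostly meaning less negative, in genes with more reads per base. Spearman's rho was 0.50, a description across genes that share the same 6 libraries and the ceiling. At or below 0.2 reads per base 5 of 9 tested members fell with a median of -0.56, from 0.2 to 0.5 it was 11 of 12 with -0.51, and above 0.5 it was 6 of 19 with -0.36. Of tested genes that are no members, 10.2% fell among those over 0.2 reads per base, those over 0.5 included, with a median of -0.065. Among those over 0.5 alone it was 13.6%, with a median of -0.15. Of all tested genes at any density 7.23% fell, with a median of 0.032.

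Genes shared by fibre types made up most of the calls: 13 of 17 fell and 0 rose, with a median of -0.46. Of all tested genes, 7.23% fell and 9.26% rose. The count of 13 dropped to 3 without U1 and to 5 without U2, T1 or T2. Xirp2, an actin-binding protein of the Z-disc region, had 5384, 6099 and 4731 scaled reads in the untreated and 3431, 3236 and 3320 in the treated libraries. The treated values are tight and far below the untreated ones (log2 fold change -0.69 ± 0.10, limma adjusted p = 0.0046). Its relative Xirp1, also an actin-binding protein, had 1485, 805 and 659 against 562, 325 and 444. U1 stands apart at the top, and the log2 fold change of -1.09 ± 0.29 (limma adjusted p = 0.0342) was lost without U1 (0.0703), U2 (0.066) or T2 (0.109).

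The giant scaffold proteins fell together. Ttn (titin), the molecular spring of the sarcomere, had 19283, 19346 and 15567 scaled reads in the untreated and 12552, 13646 and 12941 in the treated libraries. At a length of 101359 bases it carried 0.14 reads per base, well under the ceiling, and its log2 fold change of -0.46 ± 0.12 (limma adjusted p = 0.0291) was -0.405 in the 4 like-depth libraries. The Ttn call held in 2 of the 6 fits that left out 1 library. Neb (nebulin), the ruler of the thin filament, had 9214, 9660 and 8344 against 6714, 7104 and 6684 (-0.41 ± 0.09, limma adjusted p = 0.0184). Alpha-actinin 2 (Actn2, -0.49, 0.0196), the Z-disc proteins Ldb3 (-0.53, 0.0217) and Myot (-0.46, 0.0251), and beta-tropomyosin Tpm2 (-0.41, 0.0367) fell as well (log2 fold change and limma adjusted p). With 1 library left out, the call held in 3 of 6 fits for Neb, 4 for Actn2 and Ldb3, 2 for Myot and 1 for Tpm2.

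The machinery that couples the nerve impulse to contraction was lower. Cacna1s had 2062, 2671 and 1900 scaled reads in the untreated and 1326, 1466 and 1326 in the treated libraries, with no overlap (-0.67 ± 0.12, limma adjusted p = 0.0093). Ryr1, the calcium release channel it opens, had 5718, 7505 and 5410 against 4239, 4588 and 3910 (-0.54 ± 0.13, limma adjusted p = 0.0244). The Ryr1 call held in 4 of the 6 fits that left out 1 library. Cacna1s lies at chr1:136052811-136119822 and Ryr1 at chr7:29003340-29125151.

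Of the energy genes, the oxygen store Mb (myoglobin) had 659, 848 and 693 scaled reads against 578, 504 and 442 (-0.53 ± 0.12, limma adjusted p = 0.0239). The Mb call held in 4 of the 6 fits that left out 1 library. Glycogen phosphorylase Pygm (-0.42, 0.0437) and the muscle enolase Eno3 (-0.40, 0.0489) fell narrowly, and neither kept the call when any 1 library was left out. Ckm (muscle creatine kinase), at 0.852 reads per base the densest member, had 1376, 1645 and 1355 scaled reads against 1292, 1247 and 985 and did not pass (-0.32 ± 0.12, limma adjusted p = 0.104). With the filled-position estimate its log2 fold change was -0.55 (limma adjusted p = 0.0352). Skeletal actin Acta1 (-0.27, 0.14), whose reads could be split with the other actins, desmin Des (-0.31, 0.147) and the titin cap Tcap (-0.21, 0.353) did not pass. Desmin is also made by smooth muscle, and Tcap was slightly positive (0.049) in the 4 like-depth libraries.

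Muscle genes outside the 42 gave a wider view at lower density, in lists chosen with earlier results of these data known. Against their counts, 7.23% of all tested genes fell and 9.26% rose. Of 28 other sarcomere and membrane genes 24 fell and 0 rose, with a median of -0.66, among them Smtnl1 (-0.99, limma adjusted p = 0.0048), Trim55 (-0.94, 0.0053), a ligase related to Trim63, and Synpo2l (-0.98, 0.007). Of 17 other excitation-contraction genes 13 fell and 0 rose, with a median of -0.61, including the potassium channel Kcna7 (-1.24, limma adjusted p = 0.0043), junctophilin Jph2 (-0.93, 0.0051), which holds the calcium store against the membrane, Stac3 (-0.90, 0.0067) and the muscle sodium channel Scn4a (-0.81, 0.008). Of 16 other muscle energy genes 11 fell and 0 rose, with a median of -0.58, including Apobec2 (-0.84, limma adjusted p = 0.0073), mitochondrial creatine kinase Ckmt2 (-0.65, 0.0096), the phosphorylase kinase subunit Phkg1 (-0.78, 0.0154) and the glucose transporter Slc2a4 (-0.67, 0.0102), which fat cells also carry.

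Myogenic and satellite cell genes held larger falls in 2 regulators. Of 14 tested, 7 fell and 1 rose, against 7.23% and 9.26% of all tested genes. Myod1, the master factor of the muscle lineage, had 104, 153 and 114 scaled reads in the untreated and 43.0, 27.2 and 25.2 in the treated libraries (-1.95 ± 0.26, limma adjusted p = 0.0035). Pax7, which marks the resting muscle stem cells called satellite cells, had 25.3, 32.2 and 28.4 against 5.65, 7.62 and 6.72 (-1.95 ± 0.30, limma adjusted p = 0.0055). For both genes all 3 treated libraries were under the lowest untreated one by more than a factor of 2, and both kept the call without any 1 library. Pax7 rests on few reads, 73 in the 3 untreated libraries together and 20 in the 3 treated ones. The 1 that rose was Vcam1 (1.49, limma adjusted p = 0.007), an adhesion molecule that inflamed vessels also express. Of 15 tested genes of the neuromuscular junction and denervation, 2 fell, Ache (-0.98, limma adjusted p = 0.0058) and Chrnb1 (-0.56, limma adjusted p = 0.0318), and 1 rose, Runx1 (0.96, limma adjusted p = 0.0209), which many skin and blood cells express. The counts of this neuromuscular and denervation list, 2 and 1 of 15, are near the 7.23% of all tested genes that fell and the 9.26% that rose.

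The wider atrophy and catabolic list was near the share of all tested genes, of which 7.23% fell and 9.26% rose. Of its 28 tested genes 3 fell, Fbxo31 (-0.60, limma adjusted p = 0.0098), the glucocorticoid receptor Nr3c1 (-0.33, limma adjusted p = 0.0198) and Foxo4 (-0.32, limma adjusted p = 0.0407), and 0 rose (4 were higher at an unadjusted p under 0.05), with a median of -0.048. Most of these genes are expressed in many cell types.

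Markers of other cells were read beside the muscle genes, where 7.23% of all tested genes fell and 9.26% rose. The adipocyte markers, of which 6 of 15 tested fell and 0 rose, summed to 13024 to 16162 scaled reads in the untreated and 10195 to 11676 in the treated libraries, with a median log2 fold change of -0.35. The 4 with the smallest p were Lep (-1.89, limma adjusted p = 0.0016), the leptin gene, Dgat2 (-0.57, 0.0051), Plin1 (-0.70, 0.0093) and Cidea (-0.66, 0.015). The smooth muscle markers, of which 5 of 14 tested fell, summed to 7983 to 8163 against 6133 to 6738. They were Synpo2 (-0.66, limma adjusted p = 0.0016), Lmod1 (-0.97, 0.0184), Actg2 (-0.67, 0.0266), Hspb6 (-0.43, 0.0467), which striated muscle also expresses, and Myh11 (-0.33, 0.0492). In bulk skin the cell type behind the reads of each of these genes cannot be told. The cardiac markers, of which 1 of 6 tested rose (Nppb), summed to 209 to 387 against 293 to 319. The neutrophil markers, of which 9 of 10 tested rose, summed to 829 to 1069 against 1769 to 5415. The dermal fibroblast and keratinocyte markers, with 1 of 12 and 3 of 12 tested genes lower, had medians of 0.17 and -0.18. The fibroblast count is near the share of all tested genes. In none of these lists was a marker at 0 in all 6 libraries. The part of these cells in the fall of the muscle genes was not tested.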

How the data were processed

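Poly(A) RNA libraries were prepared strand-specifically (TruSeq), per the labels' protocols. The submitters' processing notes list bcl2fastq (2.20.0.422), STAR, DESeq2 and the build mm10. How reads were counted, with which filters and whether by strand, is not given in the sources used. The authors deposited 1 table of 17564 genes with a scaled signal per gene and library, transcript lengths, log2 fold changes and p-values.

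Each value was a whole multiple of 1 step per library (100% within 0.1 of a whole read), which gave the reads. Genes passing filterByExpr of edgeR 4.0.16 (minimum count 10, minimum total 15) entered limma 3.58.1 (R 4.3.3) on log2(value + 1), with a trend in the spread and Benjamini-Hochberg adjustment over all 15534 genes. The threshold was an adjusted p of 0.05. Fold changes on this scale understate the change of low genes. The edgeR quasi-likelihood test on the recovered reads called 1204 genes lower and 1249 higher. An adjusted p printed beside a log2 fold change is limma's.

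The 42 genes, their classes and the other lists were chosen with earlier results of these data known. Every member is named, with up to 4 genes of smallest p per other list and those of lists with 5 or fewer calls, except a few that are not reported here. One entry of the excitation-contraction list, Jcad, is an endothelial junction gene, kept as listed and not called. In GENCODE, 16 members have an exon overlapped by a gene on the opposite strand. Alternatives included DESeq2 1.42.0, limma-voom, other scalings, pseudocounts and filters, a replicate block, reads estimated from filled positions, the authors' deposited comparison, and leaving out each library. Python 3.11.15 with matplotlib 3.10.9 drew the plots.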

Additional observations from a re-analysis of the deposited data

How the results depend on the processing

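The fall of the muscle genes kept its direction under all 25 alternatives, by the median of the tested members (-0.21 to -0.58), but the number called did not. It was 6 without a trend in the spread (fast 0, slow 1, shared 3), and 5 when genes over 0.2 reads per base were removed, which leaves 9 members in the test (slow 1, shared 2). Leaving out single libraries gave 7 to 19 called, and under 10 when U1 (8), U2 (8), T1 (7) or T2 (9) was the one left out. Their medians ran from -0.47 to -0.31. In the same fits the fast count ran from 0 to 4 (median -0.42 to -0.27), the slow from 1 to 2 (-0.34 to -0.18), the shared from 3 to 11 (-0.56 to -0.36) and the atrophy genes with Myog from 1 to 3 (-1.04 to -0.82), with 0 higher in each. Over all genes they gave 529 to 1344 lower and 610 to 1420 higher, and over the 5 other muscle lists 37 to 53 lower and 1 to 3 higher.

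Fast calls rose from 4 to 12 with DESeq2, 9 with the replicate block, 9 with the filled-position estimate, 11 with TMM added to it, 8 with it in the 4 libraries of like depth, and 11 in the authors' deposited table. Of all genes, 8.6% fell with DESeq2, 7.36% with the filled-position estimate, 8.93% with it in the 4 libraries, and 7.56% in the deposited table, against 7.23% as reported. The shares for the replicate block and for TMM with the filled-position estimate are not given here. In the 4 libraries of like depth the median was -0.21 for the members and -0.17 for the fast genes, slow calls were 1, and 1 member (slow Tnnt1) was higher, as it was (1) with the filled-position estimate there. With the loess trend against reads per base removed the medians were -0.25 and -0.18. The median was -0.58 with the filled-position estimate under TMM. With genes over 0.2 reads per base removed it was -0.56 for members and -0.78 for shared genes. Without a trend in the spread all genes gave 640 lower and 922 higher, and the other muscle lists 32 lower and 1 higher. Those lists gave 28 lower when genes over 0.2 reads per base were removed. Tnni1, with any 1 library left out, ran from -0.073 (without untreated replicate 1) to 0.637 (without untreated replicate 3), and reached 0.756 in the like-depth libraries. Tcap turned positive, to 0.049 in the like-depth libraries and 0.098 there with the filled-position estimate. Removing the genes over 0.2 reads per base leaves fewer to be called by construction, and for the other settings the cause was not tested.

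Same-numbered samples did not deviate together (correlations -0.085, -0.055 and 0.054 for numbers 1, 2 and 3). The labels give them only a number in common. Deviations from means of 3 libraries cannot tell whether they are paired. The replicate block gave 27 members lower in place of 22. The filled-position estimates with TMM or in the 4 libraries were chosen after seeing the data.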
